A study of Homo sapiens with 6 samples.

Results

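The human histone cluster genes were followed in BE-(2)-C cells, a neuroblastoma line in which MYCN is amplified. Members were all rows of the gene table whose name begins with HIST and names no other gene, sorted by the H1, H2A, H2B, H3 or H4 in the name. There were 68 such genes of 26906 rows: 5 of H1, 15 of H2A, 20 of H2B, 15 of H3 and 13 of H4. GENCODE 29 lists 60 as protein-coding and 8 as pseudogenes. It places 49 in cluster 1 on chromosome 6, 15 in cluster 2 and 3 in cluster 3 on chromosome 1, and 1, HIST4H4, on chromosome 12. Another 5 rows join a histone gene with an overlapping gene and were left out.

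Both groups were the same clonal line, grown with serum and antibiotics, given an siRNA and harvested after 48 hours. They differed in the siRNA, a control siRNA or one against ELF4, with 3 libraries each. ELF4 encodes an ETS transcription factor. The series title links it to miR-124, proliferation and the undifferentiated state. RNA was poly(A)-selected before sequencing. Values are normalised read counts (reads divided by a size factor per library), and a change is the log2 ratio of ELF4 siRNA over control siRNA on the scale log2(value + 1). That scale makes changes of weakly read genes look smaller than they are.

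Histones H2A, H2B, H3 and H4 form the protein core around which DNA is wrapped, and H1 binds the DNA between these cores. Most cluster genes are transcribed during S phase, when new DNA has to be packed. Their mRNAs are unusual in that they normally end in a short stem-loop instead of a poly(A) tail: SLBP binds the stem-loop, the U7 small nuclear ribonucleoprotein guides the cut just after it, and the mRNA is degraded when DNA synthesis ends. Some cluster genes also have a poly(A) signal further downstream, and polyadenylated forms from them are known in cells that have stopped dividing. A poly(A)-selected library reads mainly such polyadenylated forms, plus whatever tail-less RNA is carried through the selection.

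The sequences that separate these forms are shown first, since the members are described by them below. A stem-loop of 6 paired bases on each side of a loop of 4 bases was found in a transcript of 30 of the 68 members, and in 17 of them it read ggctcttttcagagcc. The lines below give it for 5 members with 5 flanking bases on each side, 5′ to 3′ from GENCODE 29 transcripts, with the stem-loop in capitals.
HIST1H2AC stem-loop: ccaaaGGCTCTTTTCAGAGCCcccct
HIST1H2BD stem-loop: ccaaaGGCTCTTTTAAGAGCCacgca
HIST2H2BE stem-loop: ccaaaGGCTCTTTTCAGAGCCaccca
HIST2H4A stem-loop: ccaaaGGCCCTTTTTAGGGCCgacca
HIST1H4B stem-loop: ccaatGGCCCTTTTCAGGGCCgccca

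The first 4 of these genes also have a transcript with a poly(A) signal near its end, while the HIST1H4B transcript ends 86 bases past its stem-loop. In HIST2H2BE the annotated transcript runs 1729 bases past the stem-loop, in HIST1H2AC 1114 bases, and in HIST1H2BD a spliced second form lacks the stem-loop. The last 30 bases of such a transcript follow for these 4 genes, with the poly(A) signal AATAAA in capitals. For HIST2H4A it is a transcript annotated for nonsense-mediated decay, as the protein-coding transcript of that gene holds no such signal. The annotated HIST1H4B transcript holds no such signal in its last 40 bases.
HIST1H2AC transcript end: agcctggcatgaggtAATAAAaggtaatgc
HIST1H2BD transcript end: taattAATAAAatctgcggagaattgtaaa
HIST2H2BE transcript end: gttattAATAAAgttaccaattaatttaaa
HIST2H4A transcript end: ctctgAATAAAgagcagaatgattggcgtc

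By this annotation, 25 members had AATAAA or ATTAAA in the last 40 bases of a transcript: 23 protein-coding genes, of which 21 had the stem-loop as well, and 2 pseudogenes, HIST2H2BC and HIST2H2BD. A further 11 protein-coding members had sequence after the stop codon but no such signal, and 26 were annotated as coding sequence only, so that their 3′ end is not seen. HIST1H4J was counted with the signal group, although its AATAAA lies before the stem-loop and its transcript ends 6 bases after the stem-loop. The 8 pseudogenes are kept as a group of their own below. This grouping was chosen after the values had been seen and is used as a description.

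The 6 libraries held 23148635 to 38097986 reads, of which the members took 0.0148% to 0.0169% in the control siRNA libraries and 0.0259% to 0.0261% in the ELF4 siRNA libraries. ELF4 itself had normalised read counts of 42.4, 38.8 and 46.8 in the control libraries and 5.51, 5.61 and 3.10 in the ELF4 siRNA libraries, which left 11.1% of the control level (log2 fold change -2.96, SE 0.25, limma adjusted p = 5.38e-07, 3 to 5 reads per ELF4 siRNA library). All 8 of the sympathetic and neuroblastoma markers used, among them HAND2, DBH and MYCN, were above the test's minimum in these libraries. Of markers of other cells, 4 of 6 fibroblast genes rose and 1 fell, and their summed level was 3839 to 3909 in control and 3829 to 4137 in ELF4 siRNA libraries. The 4 Schwann and glial genes summed to 198 to 217 and 230.1 to 238, the 5 epithelial genes to 139 to 162 and 152 to 181, and the 3 blood and endothelial genes to 51.4 to 63.1 and 34.1 to 48.3. No marker was at 0 in either group's mean, SOX10 and COL1A2 were under 5, and the part of these cells in the results was not tested. In bulk RNA, fewer cells of a type and less RNA per cell cannot be told apart.

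Control replicate 3 stood apart from its group for these genes, and several results below depend on it. In 52 of the 68 members it had the highest value of the 3 controls, as in 6762 of all 20339 genes tested. The median ratio of its value to the mean of the other controls was 1.46, against 1.00 over all genes tested. Of 16 listed RNAs that carry no poly(A) tail, 5 of them below the test's minimum, 11 were highest of the controls in the same library. Among these, RMRP, the RNA of an endonuclease that processes ribosomal RNA, was at 52.8, 34.3 and 217 in the controls and 65.0, 57.2 and 77.6 after ELF4 siRNA. RPPH1, the RNA of RNase P and also among the 11, was at 39.6, 25.1 and 141 in the controls and 48.5, 53.9 and 56.9 after ELF4 siRNA. Others were near the other controls: the ratio of control replicate 3 to their mean was 1.02 in TERC, the telomerase RNA, and 0.879 in SCARNA9. These 4 RNAs were picked after their values were seen. Results that rest on this library are therefore given with and without it; the part of carried-over RNA in them was not tested.

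A gene was tested when 3 or more libraries had a value of 10 or more. This held for 47 of the 68 members, and none reached the minimum through one group alone. Among them, 30 rose, 0 fell and 17 did not pass (limma with a trend, Benjamini-Hochberg adjusted over 20339 genes, threshold 0.05). Over all genes tested, 20.7% rose and 24.4% fell. The members' median log2 fold change was 0.72, with a range from -1.12 to 1.49, where the median over all genes was -0.0042. Values of the groups did not overlap, with ELF4 siRNA higher, in 29 members (25.4% of all genes tested) and, with ELF4 siRNA lower, in 1, HIST1H2BH (28.2%). A rise of at least 1 on the log2 scale was called in 14 members, and in 1.64% of all genes tested. With edgeR 28 members rose and 1 fell (HIST1H1B), where 21.9% of all genes rose and 23.6% fell. With DESeq2 25 rose and 0 fell, where 16.9% of all genes rose and 20.1% fell. In limma 1 member was lower at an unadjusted p under 0.05. HIST2H3A and HIST2H3C had identical values, as had HIST2H4A and HIST2H4B, so the 30 rows that rose are at most 28 distinct measurements. Of the 68 members, 13 shared at least 50% of the 50-base stretches of their GENCODE 29 transcripts with other members. HIST2H2AA3 and HIST2H2AA4, which both rose, are among them. HIST1H2AK and HIST1H2BF passed although their groups overlapped.

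Summed over the members, with identical rows counted once, the normalised read count was 3812, 3720 and 4332 in the control libraries and 6515, 6464 and 6439 in the ELF4 siRNA libraries. The ELF4 siRNA mean of 6473 ± 38.8 was 1.64-fold the control mean of 3955 ± 330 (SD, n = 3), and the groups did not overlap. The sum was higher after ELF4 siRNA in each class: 1.85-fold in H2A, 1.75-fold in H4, 1.67-fold in H2B, 1.51-fold in H1 and 1.20-fold in H3. A few genes held much of these sums: in the controls HIST1H2BK held 50.3% of the H2B sum and HIST1H1C 82.3% of the H1 sum.

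**Figure D1:**
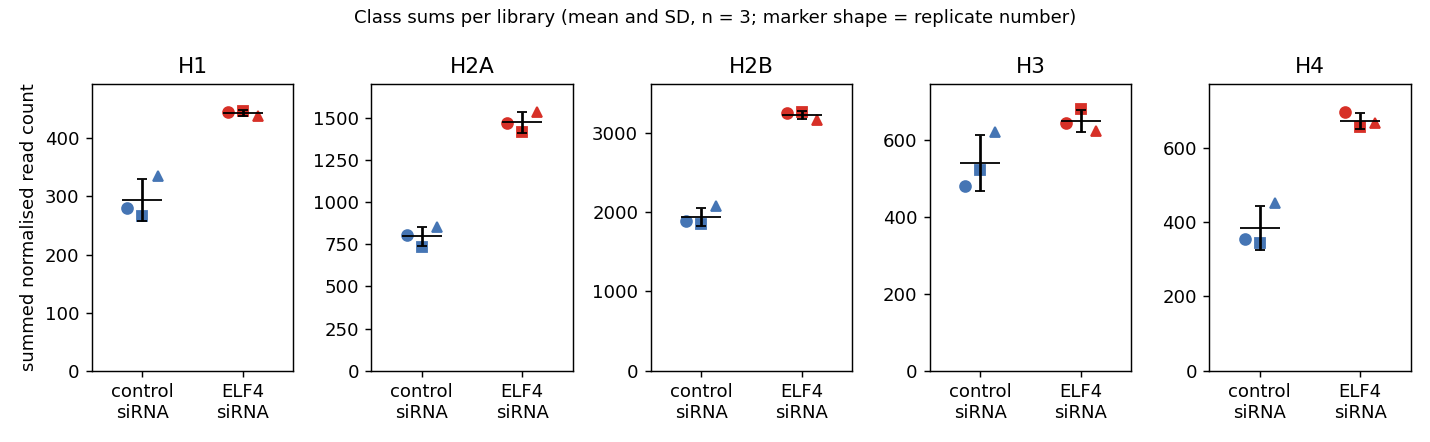
Summed normalised read count of each histone class (vertical axes from 0, one scale per class) in 3 control siRNA (blue) and 3 ELF4 siRNA (red) libraries; marker shape is the replicate number, lines are means and bars SD. All 5 classes are higher in the ELF4 siRNA libraries, and control replicate 3 (blue triangle) is the highest control in each.

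H2A sits with H2B in the dimers at the faces of the core. Of its 10 tested members, 8 rose, with a median log2 fold change of 0.92. HIST1H2AC had 222, 168 and 193 normalised reads in the controls and 522, 455 and 534 after ELF4 siRNA, the largest rise of the class on the log2 scale (1.37, SE 0.10, limma adjusted p = 1.01e-07). The lowest ELF4 siRNA library lay far above the highest control. HIST2H2AA3 went from 82.9, 89.1 and 94.9 to 210.4, 220.0 and 216 (1.27, limma adjusted p = 1.08e-07). Its transcript shares all of its 50-base stretches with that of HIST2H2AA4, which rose by 1.10, so the split of reads between the pair is uncertain. HIST3H2A, at 197, 206 and 194 in the controls and 267, 239 and 308 after ELF4 siRNA, rose less (0.44, limma adjusted p = 0.00141), again without overlap. HIST1H2AG had 127, 107 and 129.6 in the controls and 144, 145 and 131 after ELF4 siRNA; the groups did not overlap, but the change of 0.21 did not pass (limma adjusted p = 0.112).

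H2B, the partner of H2A, had the most members that rose, 12 of 16 tested, with a median log2 fold change of 0.72. HIST1H2BK had 955, 942 and 1026 normalised reads in the controls and 1494, 1459 and 1448 after ELF4 siRNA, a rise of 0.59 (SE 0.05, limma adjusted p = 4.68e-07). HIST1H2BD went from 276, 262 and 263 to 553, 595 and 569 (1.10, SE 0.06, limma adjusted p = 1.55e-08), and HIST2H2BE from 192, 207 and 219 to 425, 445 and 412 (1.05, limma adjusted p = 8.38e-08). In all of these the libraries of a group lay close together and the groups were apart. HIST1H2BN rose by 0.76, from 103 ± 5.06 to 174 ± 11.5. HIST1H2BG, with 18.8, 36.6 and 34.0 in the controls and 85.9, 75.2 and 85.9 after ELF4 siRNA, had the largest rise on this scale among tested members (1.49, SE 0.21, limma adjusted p = 4.71e-05). The 4 H2B members that did not pass had values from -0.42 in HIST1H2BH to 0.40 in HIST1H2BO. HIST1H2BH had 18.8, 17.1 and 23.4 in the controls and 14.3, 14.6 and 14.5 after ELF4 siRNA.

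**Figure D2:**
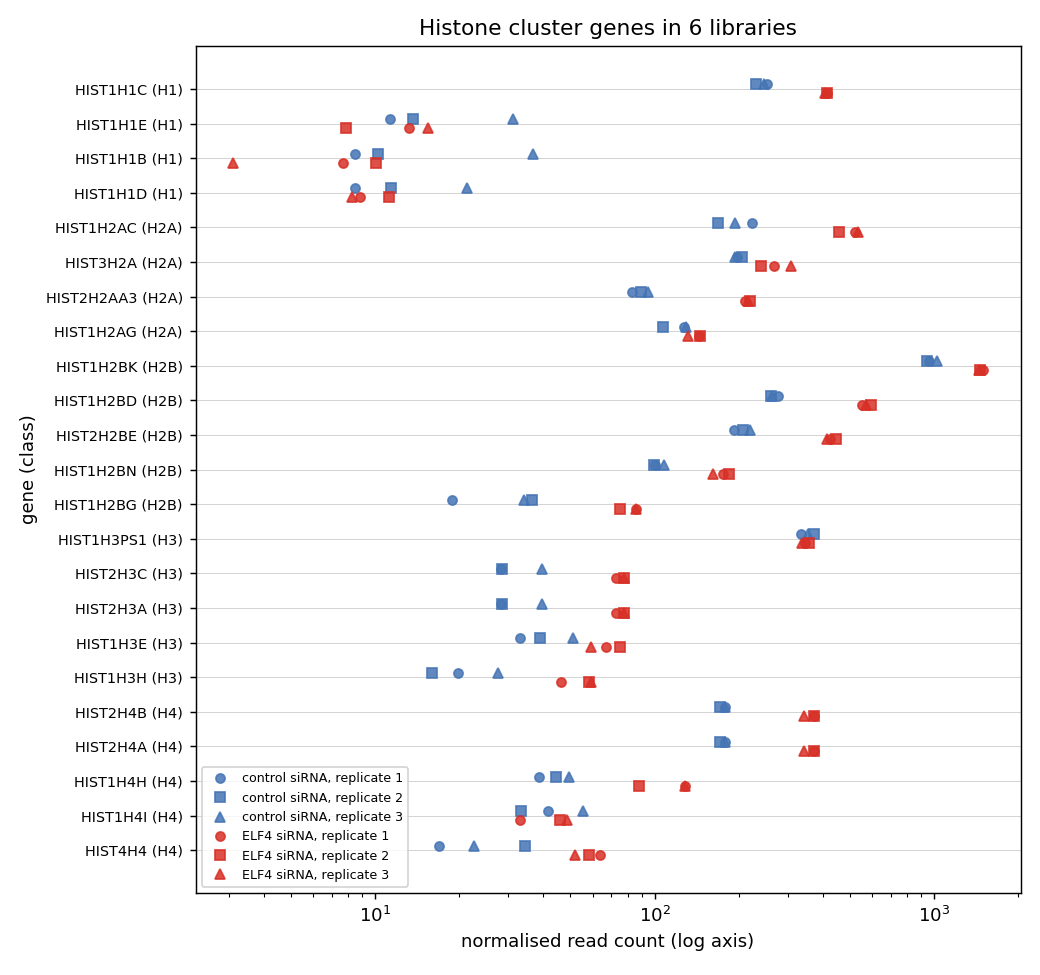
Normalised read count (horizontal log axis) of the named members in each class, 1 row per gene, in 3 control siRNA (blue) and 3 ELF4 siRNA (red) libraries, with the replicate number as marker shape. Blue and red lie apart in most H2A, H2B and H4 rows, while in HIST1H1E, HIST1H1B and HIST1H1D control replicate 3 is the highest point.

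H3 and H4 form the tetramer at the centre of the core. Of 9 tested H3 members, 5 rose. HIST2H3A and HIST2H3C, which could not be separated, had 28.3, 28.6 and 39.7 in the controls and 72.7, 77.5 and 77.6 after ELF4 siRNA (1.23, SE 0.16, limma adjusted p = 1.97e-05). HIST1H3H went from 19.8, 15.99 and 27.6 to 46.3, 58.4 and 59.0 (1.35, limma adjusted p = 8.98e-05) and HIST1H3E from 33.0, 38.8 and 51.0 to 67.2, 75.2 and 59.0 (0.72, limma adjusted p = 0.00315). In these 3 measurements the lowest ELF4 siRNA library was above the highest control.

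HIST1H3PS1, a pseudogene, held 65.3% of the H3 sum in controls. Its values were 334, 371 and 353 in the controls and 346, 357 and 336 after ELF4 siRNA, and its change of -0.03 (SE 0.07) did not pass (limma adjusted p = 0.780). Its GENCODE 29 sequence matched the mRNA of H3F3A, a histone gene outside the clusters, at 96.5% of 402 aligned bases, and that of HIST1H3B at 76.4% of 377, so its own level is uncertain. Without it, the H3 sum was 187 ± 69.1 in control and 303 ± 18.4 in ELF4 siRNA libraries, a 1.62-fold difference, and the controls were 145, 149.7 and 267.

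Of 8 tested H4 members, 4 rows rose. HIST2H4A and HIST2H4B, again 1 measurement, had 179, 171 and 179 in the controls and 372, 370.4 and 342 after ELF4 siRNA (1.03, SE 0.07, limma adjusted p = 9.52e-08). HIST1H4H had 38.6, 44.6 and 49.6 in the controls and 129, 87.6 and 128 after ELF4 siRNA (1.34, SE 0.16, limma adjusted p = 1.11e-05). HIST4H4, the single gene on chromosome 12, went from 17.0, 34.3 and 22.7 to 63.9, 58.4 and 51.7 (1.25, limma adjusted p = 3.02e-04). In contrast, HIST1H4I overlapped between groups, at 41.5, 33.1 and 55.3 against 33.0, 46.0 and 48.6 (-0.01, SE 0.20, limma adjusted p = 0.967).

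Of the 4 tested members of H1, the linker histone, 1 rose. HIST1H1C rose from 252, 230 and 245 to 413, 412 and 408 (0.76, SE 0.07, limma adjusted p = 7.55e-07), with no overlap. The other 3 tested members did not pass. HIST1H1E had 11.3, 13.7 and 31.2 in the controls and 13.2, 7.86 and 15.5 after ELF4 siRNA. HIST1H1B had 8.48, 10.3 and 36.8 in the controls and 7.71, 10.1 and 3.10 after ELF4 siRNA, and HIST1H1D had 8.48, 11.4 and 21.2 in the controls and 8.81, 11.2 and 8.28 after ELF4 siRNA. In all 3, control replicate 3 was the highest of the 6 libraries and the remaining controls overlapped the ELF4 siRNA libraries. The H1 median log2 fold change over the 4 tested members was -0.45, opposite in sign to the change of the H1 sum, in which HIST1H1C held most of the reads. Without control replicate 3 only HIST1H1C and HIST1H1E were tested, and their median was 0.35.

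**Figure D3:**
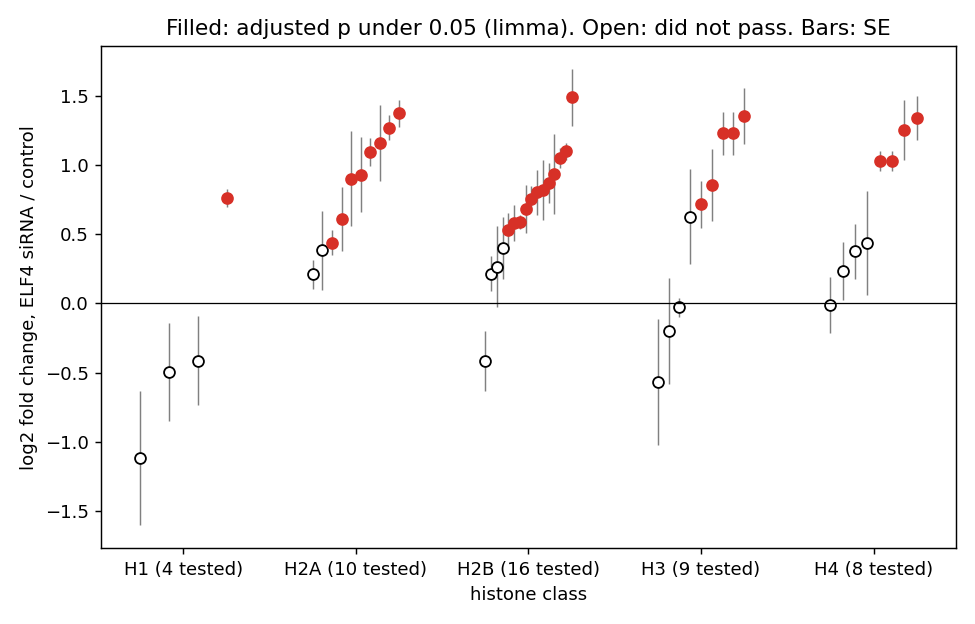
Log2 ratio, ELF4 siRNA to control siRNA (vertical axis), for each of the 47 tested members by histone class, ordered by size within a class; bars are SE, filled points passed the limma test and open points did not. All filled points lie above 0, and in H1 only HIST1H1C is filled.

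By genomic cluster, 12 of the 12 tested members of cluster 2 on chromosome 1 rose, with a median log2 fold change of 1.03, as did 15 of 31 in cluster 1 on chromosome 6 (0.59), 2 of 3 in cluster 3 and HIST4H4. The 12 of cluster 2 include the identical and near-identical rows named above and 3 H2B pseudogenes, HIST2H2BA, HIST2H2BC and HIST2H2BD (0.53 to 0.68). HIST2H3D shared 73.8%, HIST2H2BA 54.6% and HIST2H2AC 30.5% of their transcript stretches with other members. The share was 16.5% in HIST2H2BD, 9.20% in HIST2H2BC and 8.11% in HIST2H2BE. Exons overlap on opposite strands in HIST2H2BC and HIST2H2BD, HIST2H3A and HIST2H4B, and HIST2H3C and HIST2H4A. As the strand setting is not given, these pairs may share reads, and the 12 rows are not 12 separate measurements. Whether the clusters differ was not tested.

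The changes lay differently by annotated 3′ end, though the difference was not tested. Of 22 tested protein-coding members with a poly(A) signal 16 rose (median 0.95; with the 2 pseudogenes that have one, 18 of 24, median 0.84), as did 6 of 8 with another 3′ end (0.93), 5 of 12 annotated as coding sequence only (0.49) and 3 of 5 pseudogenes (0.53). Summed, the protein-coding members with a poly(A) signal had 1772, 1693 and 1908 normalised reads in the controls and 3441, 3400 and 3446 after ELF4 siRNA, a 1.91-fold difference with all libraries of a group close together. The members annotated as coding sequence only, without the 2 that hold most of their reads (HIST1H2BK and HIST1H1C, left out after their values were seen), summed to 194, 175 and 381 in the controls and 269, 272 and 252 after ELF4 siRNA. There control replicate 3 was the highest library and the other controls were the lowest.

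The level of control replicate 3 also differed by annotated 3′ end, which is not independent of the changes above. The groups were chosen after the values were seen, and each change has control replicate 3 in its control mean. The median ratio of its value to the mean of the other controls was 1.19 in protein-coding members with a poly(A) signal, 1.69 with another 3′ end, 2.25 in members annotated as coding sequence only and 0.998 in pseudogenes. For all genes tested with a mean of 10 to 50, a range closer to these low levels, the median was 0.986 and the 5th to 95th percentile 0.657 to 1.49. Control replicate 3 was the highest of all 6 libraries in 26 members: 16 of the 21 not tested, 10 of the 17 that did not pass and 0 of the 30 that rose. That split by call carries no separate information, since a high control value itself lowers the change and works against a call of a rise. The 21 untested members summed to 82.0, 75.4 and 193 in the controls and 102, 103 and 106 after ELF4 siRNA, so the ELF4 siRNA libraries lay between control replicate 3 and the other controls. HIST1H4B, whose stem-loop is shown above, is one of these members, at 1.88, 4.57 and 12.8 in the controls and 2.20, 0 and 3.10 after ELF4 siRNA. When the minimum level was dropped, 3 of the untested members passed with a rise (limma): HIST1H1PS1 (1.45, adjusted p = 0.0237), HIST2H2BF (1.03, adjusted p = 0.0240) and HIST2H3DP1 (1.03, adjusted p = 0.0431). HIST1H1PS1 rests on 1 read in each control and 3 to 5 in each ELF4 siRNA library.

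**Figure D4:**
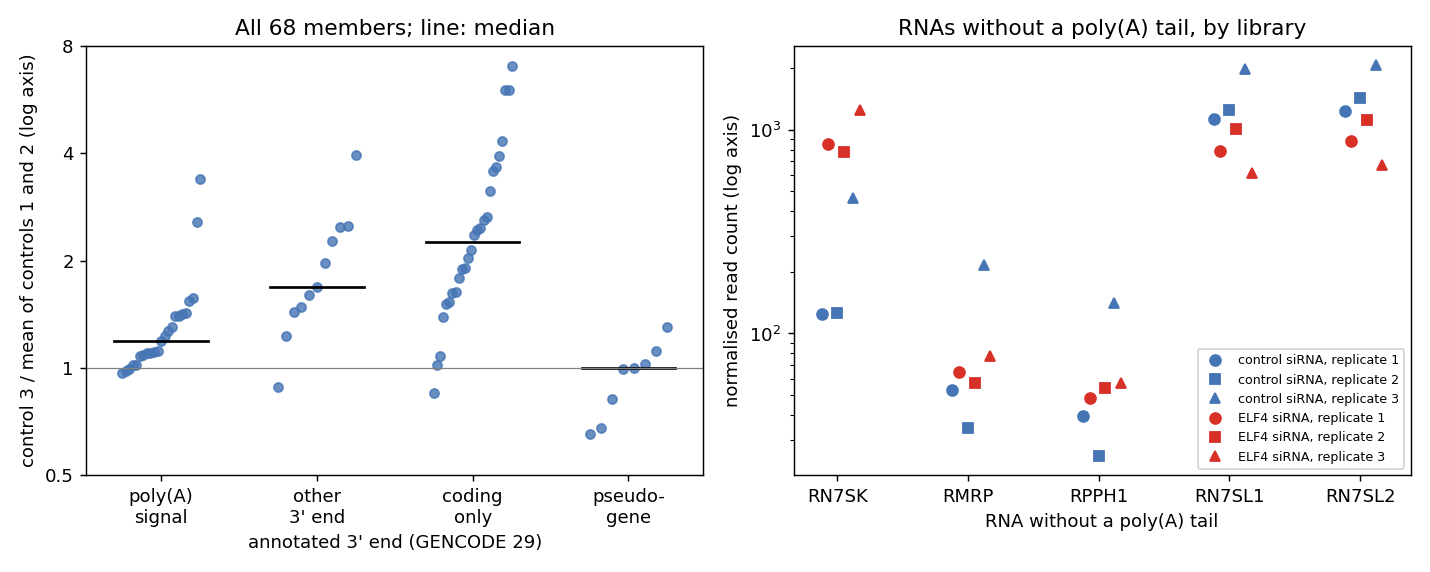
Left, ratio of control replicate 3 to the mean of control replicates 1 and 2 (log axis) for each of the 68 members by annotated 3′ end, pseudogenes shown apart, with the median as a line. Right, normalised read count (log axis) of 5 RNAs without a poly(A) tail in each library. In the left panel the coding-only members reach the highest ratios, with a median of 2.25. In the right panel RMRP, RPPH1, RN7SL1 and RN7SL2 are highest in control replicate 3, and RN7SK is not.

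Without control replicate 3, 43 members were tested, 32 rose and 0 fell (limma), where 18.1% of all genes rose and 21.1% fell. The 2 sets shared 29 members: HIST1H2AK no longer passed (adjusted p = 0.0645), and HIST1H3D, HIST1H4E and HIST1H4K passed. HIST1H1B and HIST1H1D no longer reached the minimum level, and HIST1H1E stood at -0.08 (adjusted p = 0.885). The class medians were then 1.02 in H2A, 0.80 in H2B, 1.15 in H3 and 0.98 in H4, with 7 H3 members tested. HIST1H4I, which did not pass either way, stood at 0.18 (adjusted p = 0.546). Among tail-less RNAs, RN7SK, which restrains transcription elongation, went from 125, 126 and 461 to 850, 779 and 1249 (2.27, limma adjusted p = 1.48e-04), while RN7SL1, the RNA of the signal recognition particle, went from 1134, 1251 and 1979 to 789, 1010 and 615 (-0.84, limma adjusted p = 0.00164). With all libraries these 16 listed RNAs moved in no common direction: among 11 tested, 3 rose, 2 fell and 6 missed the threshold. Over all genes tested, 20.7% rose and 24.4% fell. Without control replicate 3 the number that rose was 5, where 18.1% of all genes rose. RMRP and RPPH1 were then higher in each ELF4 siRNA library than in the remaining controls, and RN7SL1 was lower.

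Promoters of the members were compared because many rose together. RefSeq windows (GRCh38.p14) from 250 bases before to 50 after the start were found for 51 of the 68, and 18 of these overlap the window of a member that is transcribed away from it. HIST1H2AC and HIST1H2BC share 255 bases in this way, and HIST2H2AC and HIST2H2BE 265. All 4 rose, by 1.37, 0.87, 0.61 and 1.05, though HIST2H2AC missed the threshold with edgeR (adjusted p = 0.0605). Both genes also rose in the pairs HIST1H2AE with HIST1H2BG, HIST1H2AK with HIST1H2BN and HIST3H2A with HIST3H2BB. Other pairs differed: neither HIST1H2AG nor HIST1H2BJ passed (limma adjusted p = 0.112 and 0.185). HIST1H2BF and HIST1H2AI rose, while their partners HIST1H3D (limma adjusted p = 0.153) and HIST1H2BL (not tested) gave no call. HIST1H2AJ did not pass and its partner HIST1H2BM was not tested. The octamer ATTTGCAT, on either strand, was in 72.7% of H2A and 75% of H2B windows, 11.1% of H3 and 0 of the H1 and H4 windows, against 1.8% of 27305 windows of all genes. CCAAT was in 100% of H1, H2A, H2B and H3 windows and 18.2% of H4 windows, against 35.7% of all. TATAAA was in 64.7% of the members' windows, against 12% of all. The ETS-type sequence CCGGAAGT was in 0 of 51, against 4.44% of all, which says only that these exact letters are not in these windows. Shorter or variant ETS sites were not counted, and the HIST2H4A window holds CCGGAAG, which lacks only the last letter. In the 2 examples below, chosen because both genes rose while their windows differ, capitals mark CCAAT, ATTTGCAT and TATAAA on either strand, with no overlap between them. Each stretch runs from 130 to 11 bases before the start, 5′ to 3′ on the strand of the gene.
HIST2H2BE promoter, chr1:149886693-149886812, minus strand: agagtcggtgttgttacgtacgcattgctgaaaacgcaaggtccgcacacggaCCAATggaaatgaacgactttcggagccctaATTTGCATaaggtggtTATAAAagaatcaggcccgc
HIST2H4A promoter, chr1:149832527-149832646, plus strand: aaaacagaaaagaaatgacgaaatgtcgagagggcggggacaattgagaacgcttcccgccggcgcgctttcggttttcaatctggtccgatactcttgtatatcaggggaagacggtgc

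The stretch of HIST2H2BE holds all 3 elements in the order CCAAT, octamer, TATA, and that of HIST2H4A holds none of them. Their log2 fold changes were 1.05 and 1.03. Genes that rose were found both in the classes with the octamer and in H1 and H4, whose windows held none. In H1 this was HIST1H1C alone, and in H4 the rows of HIST2H4A and HIST2H4B are identical. The pair above was picked because both genes rose, and the part of these elements in the changes was not tested.

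The histone genes outside the clusters went the other way. Many, though not all, of these genes carry introns and a poly(A) tail and are transcribed throughout the cell cycle. Among the 12 tested, none rose, 9 fell and 3 missed the threshold (median -0.27 on the log2 scale). Over all genes tested, 20.7% rose and 24.4% fell. H2AFY, which encodes macroH2A, went from 9047 ± 239.8 to 5712 ± 15.4 (-0.66, limma adjusted p = 1.14e-08), and H2AFX, the variant phosphorylated at DNA breaks, fell by 0.68 on the log2 scale. H2AFZ, a variant found at gene starts, fell by 0.54, and H1F0, the linker variant of resting cells, fell by 0.29. H3F3A, which encodes a replacement H3, fell by 0.18, and H3F3B, which encodes the same protein, fell by 0.14.

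The factors that make and cut stem-loop histone mRNA were given by a list of 27 genes. Here 4 rose, 14 fell and 9 missed the threshold (median -0.16), where 20.7% of all genes tested rose and 24.4% fell. SLBP, the stem-loop binding protein, did not pass (-0.06, limma adjusted p = 0.226). LSM10, a subunit of the U7 particle, fell by 1.10 (limma adjusted p = 1.23e-06), as did SNRPB by 0.59 and SNRPE by 0.55, Sm proteins shared with splicing particles. NPAT, the activator of histone gene transcription, fell by 0.22 and CASP8AP2, which acts with it and in processing, by 0.40. The NPAT call was lost without control replicate 3 (adjusted p = 0.0548).

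The enzymes of histone mRNA decay gave 1 gene that rose and 12 that fell of 20 tested (median -0.15), among them DCP2, a decapping enzyme, by 0.70, EXOSC9 of the exosome by 0.59 and LSM3 of the ring that binds oligouridylated ends by 0.38. Of 29 tested histone chaperones, 4 rose and 18 fell (median -0.24): ASF1B, which hands H3 and H4 to the replication fork, fell by 1.00, NAP1L4 by 0.68, the replicative helicase subunit MCM2 by 0.68, and CHAF1A of chromatin assembly factor by 0.39. Of 14 S phase genes, 0 rose and 12 fell (median -0.44), among which MYBL2 fell by 0.81, CCNA2, the S phase cyclin, fell by 0.68, and PCNA, the polymerase clamp, fell by 0.54. The cluster genes and the genes that make, pack and time their products thus had medians of opposite sign in the same libraries. Over all genes tested, 20.7% rose and 24.4% fell, and these shares differed with level. All tested genes of these lists but POU2AF1 had a mean of at least 100, where 3222 of 13056 genes rose and 4282 fell (median -0.035). Of the 13 cluster genes at that level 11 rose (median 1.03). With a mean of 10 to 100, 971 of 7021 genes rose and 652 fell (median 0.068).

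**Figure D5:**
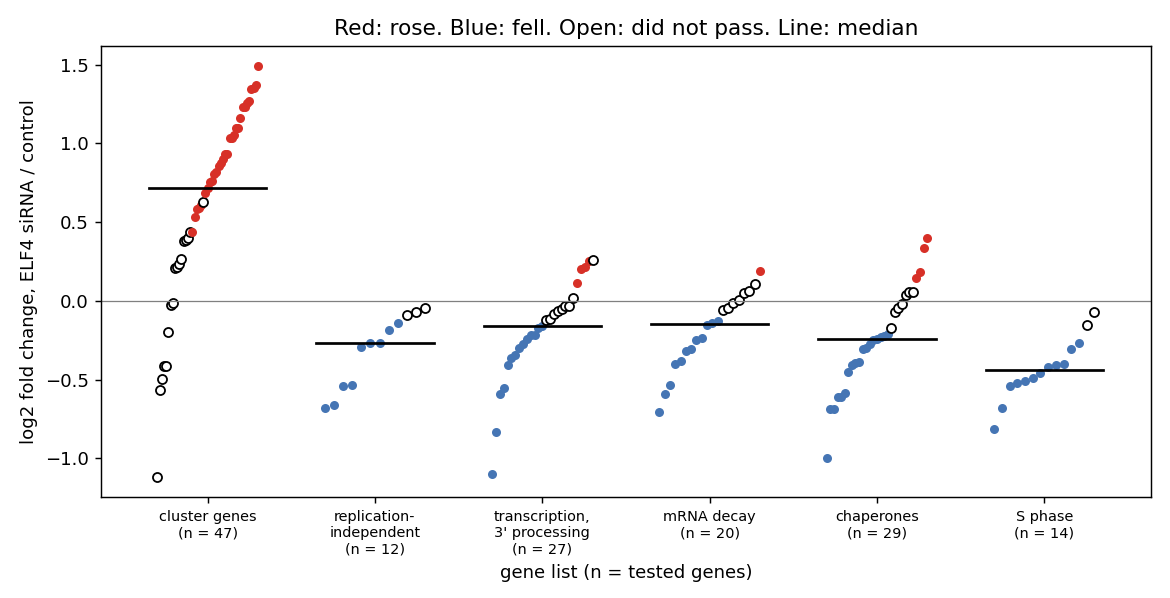
Log2 ratio, ELF4 siRNA to control siRNA (vertical axis), for each tested gene of the histone clusters and 5 related lists, ordered by size within a list; red rose, blue fell, open did not pass (limma), and the line is the median. The cluster genes have a median of 0.72, the other lists medians from -0.15 to -0.44.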

How the data were processed

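Poly(A)-selected RNA from BE-(2)-C cells, isolated with Trizol per the labels, was sequenced in 3 control siRNA and 3 ELF4 siRNA libraries. The authors deposited 1 signal per gene and library, a normalised read count. The submitters' processing notes name hg19, TopHat, featureCounts and DESeq2. Versions, annotation, and the strand and multi-mapping settings are not given in the sources at hand. All values (100%) were whole multiples of 1 read's worth within 0.001, so reads and size factors were recovered. Near-identical and overlapping genes, and a gene and its antisense partner, may therefore share reads, and 10 of the tested members overlap an exon of another gene in GENCODE 29. No library was a copy of another: the chi-square per degree of freedom within groups was 2.05 to 5.78.

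Genes reaching 10 in 3 or more libraries entered the test, limma 3.58.1 with a trend on log2(value + 1), in R 4.3.3, ELF4 siRNA against control siRNA with no covariate. P-values were Benjamini-Hochberg adjusted over 20339 genes, with a threshold of 0.05. The labels say only that treatment was in triplicate, so p-values reflect only the scatter of these libraries, which may be technical. On data simulated for this comparison over 19966 genes, limma found 64% of the 100 that were shifted by a log2 change of 0.5 and 83.7% of the 98 shifted by 1, with 11 false calls. Far fewer genes were shifted there than were called in the data. The Benjamini-Hochberg cut-off was therefore another one, and these rates need not hold for the data.

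The members and gene lists were chosen with earlier results of these data known. Named are ELF4, the up to 4 tested members of each class with the highest mean, the 8 largest rises, the up to 3 genes of each of 6 lists with the smallest adjusted p, and a few fixed factors. Some listed marker genes are not reported here. Members named beyond this rule were chosen after their values were seen. So were the grouping by 3′ end and the searches of promoters and transcripts. The alternatives were other pseudocounts (0.5 and 5), filters and scalings, limma without a trend, edgeR 4.0.16 and DESeq2 1.42.0 run on reads, the replicate number as a block, omission of each library, adding the joined rows, and a minimum change of 0.5. Sequences come from GENCODE 29 and RefSeq (GRCh38.p14), another build than hg19, so they describe those annotations. Python 3.11.15, pandas 2.3.3 and matplotlib 3.10.9 were also used.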

Additional observations from a re-analysis of the deposited data

How the results depend on the processing

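The number of members that rose was 30 with the other pseudocounts, TMM scaling, equal library totals and the replicate block, 31 with no filter on low values, 32 with joined rows added, 29 with a minimum change of 0.5, 28 with edgeR and 25 with DESeq2 or limma without a trend. It was 11 with a mean value of at least 100, where only 13 members were tested, and 26 to 32 when 1 library was left out. The number that fell was 0, but 1 with limma without a trend (HIST1H2BH), edgeR (HIST1H1B) and the replicate block (HIST1H1B), and 0 to 1 when 1 library was left out: HIST1H1B without control replicate 1 and HIST1H3B without control replicate 2. HIST1H1B stood at -1.12 (adjusted p = 0.077) in limma, at -1.58 (0.0367) with edgeR and at -1.49 (0.0287) without control replicate 1.

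The change of the H1 sum, 0.59 on the log2 scale, had the opposite sign to the median of its 4 tested members, -0.45, but the same sign as the median of the 2 tested without control replicate 3, 0.35. Calls lost in at least 1 alternative that kept the filter of 10 were HIST1H2AK, HIST2H2AC, HIST1H2BF, HIST2H3D, HIST1H2AE, HIST3H2BB and, with a minimum change of 0.5, HIST3H2A (0.44). The filter on the mean left out further members. NPAT, H3F3A and H3F3B did not pass with limma without a trend (adjusted p = 0.0638, 0.0666 and 0.0526). The values of HIST1H4I and HIST1H3PS1, near 0 and never called, changed sign: 0.18 and 0.16 for HIST1H4I without control replicate 3 or ELF4 siRNA replicate 1, and 0.01 for HIST1H3PS1 without control replicate 2.

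Same-numbered libraries correlated by 0.043, 0.264 and 0.131 in their deviations from the group means, so the numbers were not taken to pair them; the replicate block gave 4564 genes that rose and 5346 that fell over all genes. Low reads limit the untested members, of which 3 passed with a rise when the filter was dropped (HIST1H1PS1, HIST2H2BF and HIST2H3DP1). Among all members 8 had 0 reads in at least 1 library.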
